A study of Mus musculus with 32 samples.

Results

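The mitochondrial ribosomal protein genes are the nuclear genes whose symbols begin with *Mrpl* or *Mrps*, for proteins of the large and the small subunit of the ribosome inside mitochondria. They were taken by symbol alone from a table of expected counts of 54838 genes, as every symbol made of *Mrpl* or *Mrps*, a number and at most 1 letter from a to c. This gave 78 genes, and all 78 had 10 or more counts in at least 4 libraries. By their known place in the ribosome, 51 encode large subunit proteins and 26 small subunit proteins. The remaining gene, *Mrps36*, carries the family name although its product is a subunit of the mitochondrial oxoglutarate dehydrogenase complex. The lowest expected count of any member in any library was 489 and the highest 11115.

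The mitochondrial ribosome translates the few mRNAs that mitochondrial DNA encodes, all of them for core subunits of the respiratory chain and the ATP synthase. Its rRNAs come from mitochondrial DNA, whereas its proteins are made in the cytosol and imported. Some of these proteins descend from those of the bacterial ribosome, and others were added during the evolution of mitochondria. Skeletal muscle gains mitochondria as its fibers mature after birth, and fibers rich in mitochondria depend on this ribosome to build respiratory complexes.

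The samples were skeletal muscle, the tibialis anterior (TA) in the methods, of WT mice and of *Mtm1* KO mice on the C57BL6/J background aged 1 day (P1), 14 days (P14), 21 days (P21) or 35 days (P35), with n=4 libraries per genotype and age and 32 in all. *Mtm1* is X-linked, its product myotubularin is a lipid phosphatase, and the KO allele carries a deletion in exon 4 in every cell of the animal, which models X-linked myotubular myopathy. No group received a treatment, and male KO mice are hemizygous. The comparisons ask how the genes differ between KO and WT at each age and how they change with age.

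Counts summed to between 49321035 and 85631408 per library. *Mtm1* itself stood at 18.9 to 24.9 CPM (counts scaled to a common library size) in the 12 WT libraries from P14 on and at 2.64 to 4.51 CPM in the 12 KO libraries of those ages, and at P1 at 5.26 to 6.02 CPM in WT versus 2.32 to 3.91 CPM in KO. The 8 muscle fiber markers summed to 18970 to 36320 CPM in the libraries of P1 and to 81171 CPM or more in every later one. Keratinocyte markers summed to 1470 to 5707 CPM in the 8 libraries of P1 and to 2.46 to 6.16 CPM in the 24 later ones, and the part of skin RNA in the changes from P1 to P14 was not tested. In bulk muscle, fewer cells of a type and less RNA per cell cannot be told apart. CPM values here were scaled by TMM, which sets libraries to a common level by the bulk of their genes, in 1 step over all 32 libraries. Log2 fold changes between genotypes come from edgeR's quasi-likelihood test within an age, and a gene is called lower or higher where its Benjamini-Hochberg adjusted *P* over all genes tested is under 0.05.

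The scaling decides which sign most of these genes carry. At P35 the all-gene median of the log2 fold change was 0.035 after TMM and 0.44 with library totals. Transcripts encoded by mitochondrial DNA made up 12.4 to 17.9% of counts in WT and 10.3 to 10.5% in KO at P35, and 9.75 to 11.99% and 8.21 to 8.78% at P21. With library totals that leave these transcripts out, the all-gene median was 0.35 at P35. At P21 it was 0.16 without them and 0.20 with them. The difference between the members and the median gene does not turn on the scaling, so it is given beside each count. Shares of all genes called are given for TMM and an adjusted *P* only. Counts called with library totals therefore show how the scaling moves the calls, and are not a result about the members. Counts at an unadjusted *P* likewise have no share of all genes beside them, and are not a result about the members.

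For 69 of the 78 members the RefSeq promoter table of GRCm38.p6 held the 250 bases before and 50 after a transcript start. This start can differ from the end of the gene span given below, and for *Mrpl33* it lies inside that span. The members without an entry were *Mrpl4*, *Mrpl13*, *Mrpl15*, *Mrpl19*, *Mrpl38*, *Mrpl54*, *Mrps28*, *Mrps34* and *Mrps35*. Both strands were searched for 4 short motifs of factors known to act at genes of mitochondrial proteins or at housekeeping promoters, namely the NRF1 core GCGCATGC, the GABPA core CCGGAAGT, the YY1 core AAGATGGC and the SP1 box GGGCGGG, whose matches may overlap only at their ends. The NRF1 core was present in 8 members, or 11.6%, against 3.05% of the 27025 genes with an entry. The GABPA core was present in 12 members (17.4%, against 4.31% of all genes) and the YY1 core likewise in 12 (17.4%, against 3.19%). The SP1 box was present in 29 members (42.0%, against 27.9%). Among the 28 members with an entry that were lower in KO at P35, 2 held the NRF1 core, 5 the GABPA core, 7 the YY1 core and 14 the SP1 box, and among the other 41 members 6, 7, 5 and 15 did. A match is only a description of these letters. The promoters of 5 members that the results turn on are shown 5′ to 3′ on the strand of the gene, with matches in capitals: *Mrpl34*, which fell most in KO, *Mrpl47* and *Mrps27*, which also fell, *Mrpl33*, which rose, and *Mrpl42*, the most abundant member. *Mrpl34* and *Mrpl47* held none of the 4 motifs, *Mrps27* held the GABPA and YY1 cores, *Mrpl33* held the NRF1 core just before the start and the GABPA core across it, and *Mrpl42* held an SP1 box and, after the start, the YY1 core.
*Mrpl34* promoter, GRCm38.p6 chr8:71464676-71464975, plus strand: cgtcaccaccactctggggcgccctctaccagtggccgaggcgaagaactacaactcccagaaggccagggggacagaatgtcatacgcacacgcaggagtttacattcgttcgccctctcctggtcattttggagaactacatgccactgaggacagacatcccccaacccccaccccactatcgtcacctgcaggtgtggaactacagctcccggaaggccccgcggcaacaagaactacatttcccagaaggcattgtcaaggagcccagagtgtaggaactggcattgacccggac
*Mrpl47* promoter, GRCm38.p6 chr3:32736706-32737005, minus strand: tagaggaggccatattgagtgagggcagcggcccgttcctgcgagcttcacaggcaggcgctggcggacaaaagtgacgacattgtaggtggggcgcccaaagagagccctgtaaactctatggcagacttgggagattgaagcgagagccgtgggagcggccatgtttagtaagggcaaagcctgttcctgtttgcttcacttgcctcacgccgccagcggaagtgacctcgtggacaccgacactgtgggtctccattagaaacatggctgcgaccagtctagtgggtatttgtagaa
*Mrps27* promoter, GRCm38.p6 chr13:99344536-99344835, plus strand: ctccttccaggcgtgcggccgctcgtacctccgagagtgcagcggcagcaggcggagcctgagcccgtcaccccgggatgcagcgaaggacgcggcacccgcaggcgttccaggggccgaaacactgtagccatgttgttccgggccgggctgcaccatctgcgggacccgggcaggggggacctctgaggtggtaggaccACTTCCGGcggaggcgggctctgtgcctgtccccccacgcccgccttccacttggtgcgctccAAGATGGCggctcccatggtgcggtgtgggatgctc
*Mrpl33* promoter, GRCm38.p6 chr5:31613701-31614000, plus strand: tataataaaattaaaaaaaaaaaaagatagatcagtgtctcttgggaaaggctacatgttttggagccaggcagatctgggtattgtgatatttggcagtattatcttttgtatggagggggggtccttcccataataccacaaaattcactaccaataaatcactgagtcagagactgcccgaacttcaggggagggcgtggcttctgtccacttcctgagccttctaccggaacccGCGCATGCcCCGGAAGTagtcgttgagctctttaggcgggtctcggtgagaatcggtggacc
*Mrpl42* promoter, GRCm38.p6 chr10:95501900-95502199, minus strand: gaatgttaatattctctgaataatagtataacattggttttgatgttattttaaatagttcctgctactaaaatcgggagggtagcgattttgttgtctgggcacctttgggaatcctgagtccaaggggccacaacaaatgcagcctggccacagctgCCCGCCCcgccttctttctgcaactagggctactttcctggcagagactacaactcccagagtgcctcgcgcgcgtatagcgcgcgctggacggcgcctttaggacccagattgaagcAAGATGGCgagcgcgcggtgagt

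Among WT libraries at P35, levels per kilobase of the principal transcript spread 63.5-fold from the highest member to the lowest, with a median of 31.3 CPM per kb, and 48 of the 78 members lay within 2-fold of that median. *Mrpl42*, a large subunit protein with no bacterial counterpart, stood first at 336 ± 23.1 CPM per kb (SD, n=4). It was followed by *Mrps21*, the counterpart of bacterial S21, at 171 ± 11.3 CPM per kb. These first and second places did not overlap within their SDs. *Mrpl12*, a protein of the factor-binding stalk, at 109 ± 11.8 CPM per kb, *Mrpl33* at 109 ± 4.76 and *Mrps36* at 102 ± 9.83 came next, and these 3 did not differ beyond their spread. The lowest levels were those of *Mrps26* at 6.61 ± 0.385, *Mrps35* at 6.45 ± 1.01 and *Mrps25* at 5.29 ± 0.269 CPM per kb, and the spread of *Mrps35* reached both of its neighbors. The principal transcripts of these 3 genes are long, 4278, 4162 and 6073 bases, so the order depends on the transcript chosen for each gene. *Mrpl33* left its place beside *Mrpl12* in KO at P35, where it stood at 149.9 ± 10.6 CPM per kb and *Mrpl12* at 82.5 ± 8.25.

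During normal maturation nearly all members rose relative to the median gene. From P1 to P14 in WT, 76 of 78 members were higher and 0 lower (edgeR's quasi-likelihood test in 1 fit of the 32 libraries), whereas 35.4% of the 18583 genes tested were higher and 39.7% lower. The members' median log2 fold change was 0.89 and that of all genes −0.09. The summed level of the members went from 1669 ± 92.6 to 3109 ± 258 CPM (SD, n=4). With library totals the median was 0.10 for the members and −0.87 for all genes, 31 members were called higher and 21 lower, and 77 of 78 members still lay above the median gene, as they did after TMM. As a share of all counts the members took 0.242 to 0.260% at P1 and 0.266 to 0.275% at P14 in WT. The exceptions were *Mrpl52*, at −0.12, and *Mrps35*, at 0.16, which did not pass the test.

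The largest rise was that of *Mrps36*, from 17.3 to 20.7 CPM in the 4 libraries of P1 to 51.4 to 76.7 CPM at P14, with log2 fold change 1.73 ± 0.134 (SE, adjusted *P*=3.76e-12, edgeR). *Mrpl42* read 45.0, 54.8, 42.1 and 43.1 CPM at P1 and 144, 134, 153 and 170.05 CPM at P14, with log2 fold change 1.70 (adjusted *P*=3.07e-13, edgeR). *Mrps21* rose by a log2 fold change of 1.53 and *Mrps28*, a protein of the small subunit, by 1.36. No library of P1 reached a library of P14 for *Mrps36* or *Mrpl42*. The medians of the large and small subunit genes were 0.86 and 0.91, and their difference was not tested.

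From P14 to P21 the rise split the family. In WT, 30 members (38.5%) were higher at P21 and 1 lower, against 12.2% and 12% of all genes, with a median of 0.16 for the members and −0.03 for all genes. With library totals 16 members were higher and 8 lower at a median of −0.01, against −0.20 for all genes, and 68 of 78 lay above the median gene, against 67 after TMM. *Mrpl34*, a small basic protein of the large subunit core, went from 14.4, 13.5, 16.6 and 18.3 CPM to 29.3, 34.5, 28.9 and 27.3 CPM, with log2 fold change 0.93 ± 0.121 (adjusted *P*=2.78e-06, edgeR). *Mrpl45*, which lies at the exit of the nascent chain and helps tether the ribosome to the inner membrane, went from 42.5, 41.7, 42.9 and 49.98 CPM to 85.9, 78.7, 74.4 and 73.6 CPM, with log2 fold change 0.82. *Mrps18b* (0.76) and *Mrpl19* (0.74) followed. In each of *Mrpl34* and *Mrpl45* the 4 libraries of P21 lay above the 4 of P14. The member that fell was *Mrpl54*, a large subunit protein without bacterial counterpart, at −0.26 (adjusted *P*=0.0488, edgeR), near the threshold, and 6 of the 8 refits that left out 1 library did not call it, at −0.29 to −0.20.

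The 3 genes of the S18 family show how far members can part. *Mrps18a* and *Mrps18b* rose from P14 to P21 (0.51, adjusted *P*=0.000242, and 0.76, adjusted *P*=2.59e-07, edgeR), whereas *Mrps18c* stood at −0.07 over that step and rose from P21 to P35 by 0.48 (adjusted *P*=0.00432). The mean of *Mrps18c* was 11.8, 26.6, 25.3 and 35.2 CPM at the 4 ages in WT, and that of *Mrps18b* was 15.3, 23.1, 39.1 and 34.0 CPM.

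From P21 to P35 in WT, 14 members were higher and 1 lower, against 10% and 7.64% of all genes, with a median of 0.09 for the members and 0 for all genes. *Mrps18c* (0.48), *Mrps14* (0.44), *Mrpl16* (0.39) and *Mrps33* (0.38) rose most, and *Mrpl19* fell by 0.30 on the log2 scale (adjusted *P*=0.0426, edgeR), a call that 5 of 8 refits without 1 library did not give. The 15 calls became 8 without WT P21 replicate 1, 6 without WT P21 replicate 3, 8 without WT P21 replicate 4, 6 without WT P35 replicate 2 and 8 without WT P35 replicate 4, and with library totals 3 were higher and 8 lower. In the KO libraries the medians of the 3 steps were 0.89, 0.02 and 0.01, where WT had 0.89, 0.16 and 0.09.

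**Figure D1:**
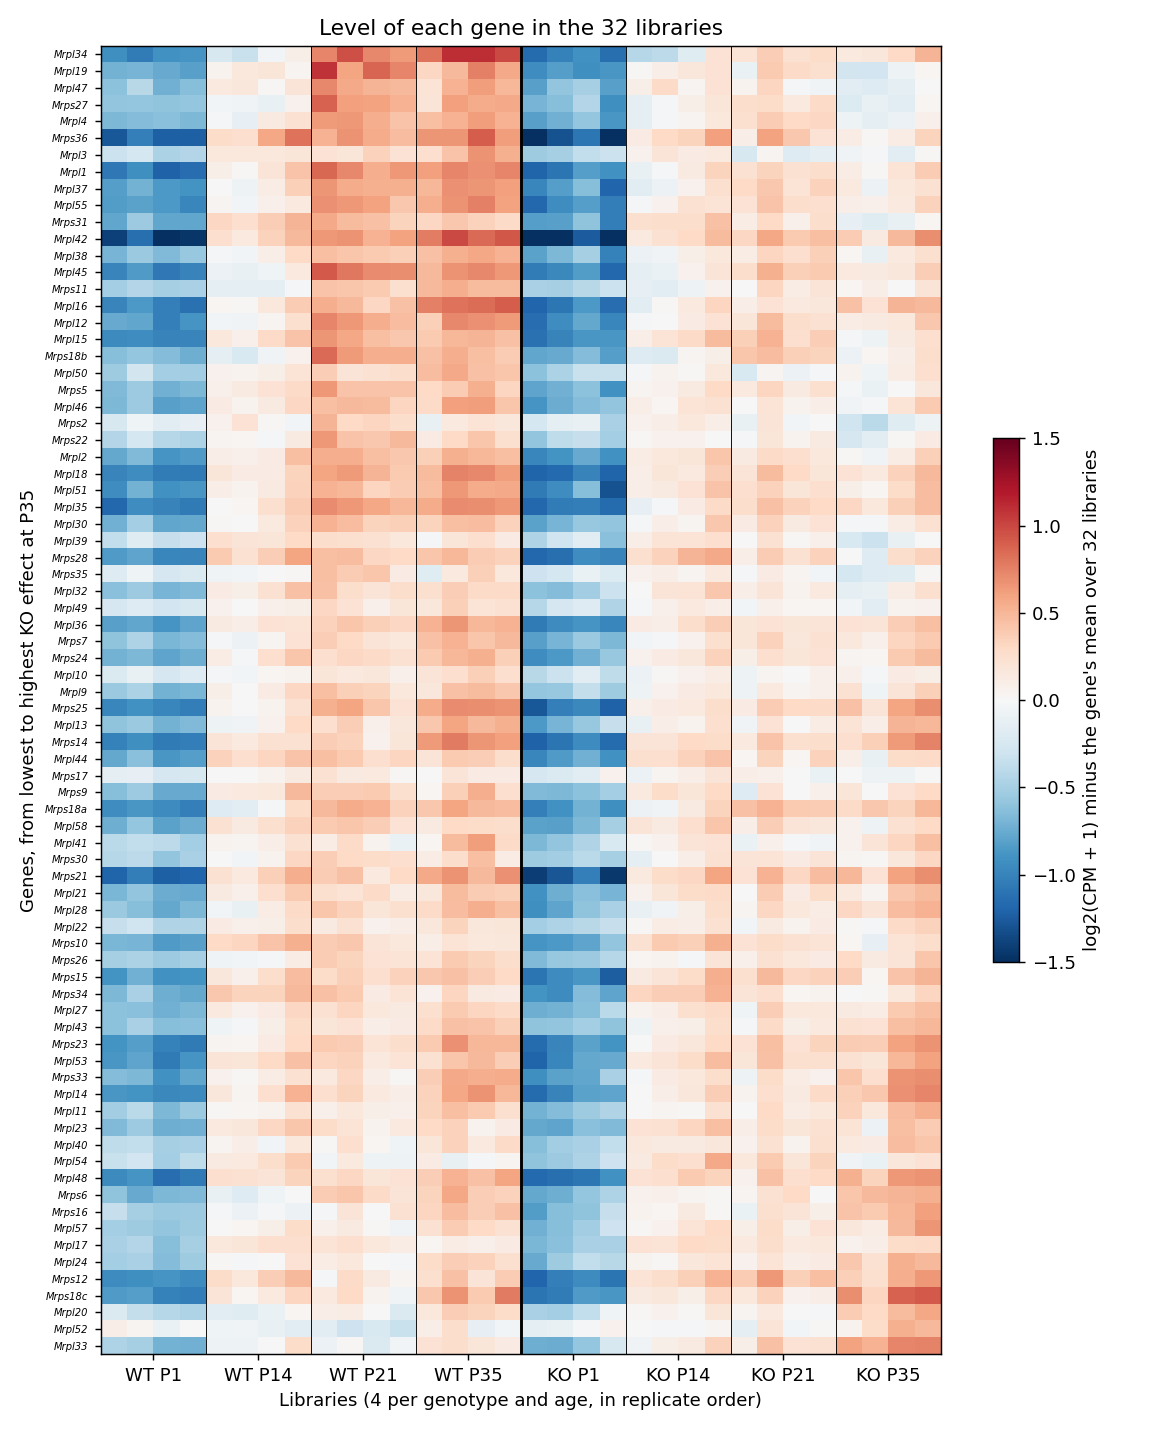
Each row is 1 of the 78 genes, ordered by its KO effect at P35, and each column 1 of the 32 libraries, and the color gives log2(CPM + 1) minus the gene's mean over all libraries, from blue (lower) to red (higher). Nearly every row is blue at P1 in both genotypes, with *Mrpl52* near 0, and the upper rows turn red at P21 and P35 in WT and less so in KO.

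At P1 no member was called between KO and WT. There were 0 called in either direction, against 0.0276% of the 18100 genes tested lower and 0.215% higher, and at an unadjusted *P* under 0.05 edgeR gave 2 lower and 0 higher (DESeq2 also called 0). The members' median was −0.05 and that of all genes 0.01, and 58 of 78 members lay below the median gene. The smallest adjusted *P* values were those of *Mrpl19* (−0.14, adjusted *P*=0.422), *Mrpl36* (−0.15) and *Mrps15* (−0.18), the last 2 with overlapping libraries.

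At P14 there were again 0 members called, against 0.00636% of 15728 genes lower and 0.089% higher, and at an unadjusted *P* under 0.05 edgeR gave 0 lower and 4 higher (DESeq2 called 0). The medians were 0.01 for the members and 0.00 for all genes, and 30 members lay below the median gene. The summed level was 3109 ± 258 CPM in WT versus 3125 ± 258 in KO (SD, n=4). The 3 members with the smallest adjusted *P* were *Mrpl20* (0.18), *Mrps6* (0.16) and *Mrps16* (0.12). With the replicate number as a block, which pairs the libraries at this age, *Mrpl20* alone was called, at 0.18 ± 0.0439 (adjusted *P*=0.0440, edgeR).

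At P21 members were called in both directions. After TMM, 24 of 78 members (30.8%) were lower and 4 higher (5.13%), against 9.57% and 11.4% of the 15179 genes tested. The members' median was −0.14, that of all genes 0.01, and 59 members lay below the median gene. For 26 members all 4 KO libraries lay below all 4 WT libraries and for 4 above, against 11% and 13.7% of all genes. The summed level was 3622 ± 192 CPM in WT versus 3240 ± 215 in KO (SD, n=4), with overlapping libraries (3430 to 3819 and 3034 to 3537). No member passed the stricter pair of thresholds of the study, an adjusted *P* under 0.01 with a change over 1.5-fold, which 1.5% of all genes passed as lower and 3.18% as higher.

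The direction at P21 rests on the scaling. With library totals 6 members were lower and 16 higher at a median of 0.05, while the median gene stood at 0.20 and the same number of members, 59, lay below it. As a share of all counts that mitochondrial DNA does not encode, the members took 0.295 to 0.333% in WT and 0.293 to 0.343% in KO. The 6 members lower also by library totals were *Mrpl1*, *Mrpl19*, *Mrpl34*, *Mrpl47*, *Mrps22* and *Mrps27*. Leaving out 1 library cut the 28 calls to 14 (without WT P21 replicate 1), 18 (without WT P21 replicate 2), 18 (without KO P21 replicate 1), 16 (without KO P21 replicate 3) and 14 (without KO P21 replicate 4).

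*Mrpl1*, the protein of the mobile L1 stalk, had the smallest adjusted *P* at P21. Its libraries read 51.1, 46.4, 41.0 and 44.4 CPM in WT versus 32.7, 35.4, 32.9 and 33.7 CPM in KO. All KO libraries lay below all WT libraries, and its log2 fold change stood at −0.43 ± 0.0702 (SE, adjusted *P*=0.00349, edgeR). *Mrpl34* read 29.3, 34.5, 28.9 and 27.3 CPM in WT versus 19.9, 22.4, 20.3 and 21.1 CPM in KO, again without overlap, with log2 fold change −0.51 ± 0.0869 (adjusted *P*=0.00423). *Mrpl47*, the counterpart of L29 near the exit of the tunnel, read 41.1, 37.1, 35.6 and 34.9 CPM against 25.5, 31.0, 24.4 and 23.8 CPM (−0.49, adjusted *P*=0.00713). *Mrpl19*, a large subunit protein at the face between the subunits, had the largest fall at this age, −0.61 ± 0.132 (adjusted *P*=0.0116). Its WT libraries read 56.4, 39.9, 48.7 and 44.0 CPM and its KO libraries 24.4, 34.8, 32.2 and 31.1 CPM. Replicate 1 was the highest of WT and the lowest of KO, and the groups did not overlap. Of the other members with the smallest adjusted *P*, *Mrps27* stood at −0.42, *Mrps22* at −0.41, *Mrpl45* at −0.38 and *Mrpl50* at −0.33, and all 4 are proteins without bacterial counterpart.

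**Figure D2:**
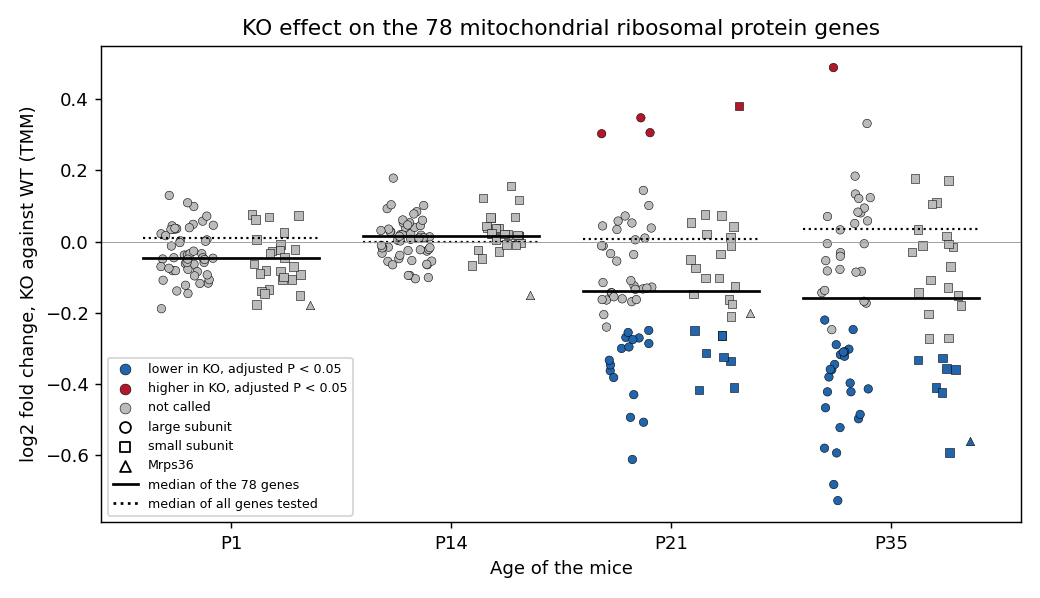
Each point is the log2 fold change of 1 gene, KO against WT after TMM scaling, at each age (n=4 libraries per genotype), as circles for the large subunit, squares for the small subunit and a triangle for *Mrps36*, where blue and red mark genes called lower and higher, solid lines the median of the 78 genes and dotted lines that of all genes tested. No point is colored at P1 and P14, and the solid line lies at −0.14 at P21 and −0.16 at P35, where library totals in place of TMM give 0.05 and 0.24.

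At P35, after TMM, 32 of 78 members (41.0%) were lower and 1 higher (1.28%), against 20.1% and 21.4% of the 15595 genes tested, and 29 members lay below WT in all libraries and 1 above, against 20.4% and 19.2% of all genes. The members' median was −0.16 and that of all genes 0.04, and 62 members lay below the median gene. The stricter thresholds of the study were passed by 4 members as lower, *Mrpl34*, *Mrpl19*, *Mrpl47* and *Mrps27*, and by 0 as higher, against 7.52% and 8.49% of all genes. The summed level was 3860 ± 205 CPM in WT (3577 to 4047) and 3303 ± 342 in KO (2936 to 3712), so the libraries overlapped.

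With library totals the signs turned at P35. Then 1 member was lower, *Mrpl34*, and 37 were higher at a median of 0.24, while the median gene stood at 0.44 and again 62 members lay below it. The share of all genes called higher with library totals is not given here, so the 37 are not particular to the members. Of the 32 members lower after TMM, 15 then had a negative and 17 a positive log2 fold change, whereas at P21 all 24 stayed negative. Of counts that mitochondrial DNA does not encode, the members took 0.299 to 0.368% in WT and 0.342 to 0.398% in KO. Relative to the median gene the members were lower by 0.19 on the log2 scale after TMM and by 0.20 with library totals, and at P21 by 0.15 with both. After TMM, RLE (the size factors of DESeq2) and upper-quartile scaling alike, 26 members were called lower at P35 and 24 at P21.

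*Mrpl34* (GRCm38, chr8:71464959-71465747, plus strand) read 31.1, 38.3, 38.2 and 35.2 CPM in WT versus 19.1, 19.5, 21.4 and 24.8 CPM in KO at P35. Every KO value lay below every WT value, with log2 fold change −0.73 ± 0.103 (SE, adjusted *P*=0.000639, edgeR), the largest fall of any member. *Mrpl4* (chr9:21002738-21008839, plus strand), whose bacterial counterpart lines the exit tunnel, had the smallest adjusted *P*. It read 44.5, 46.9, 50.5 and 46.7 CPM in WT versus 30.6, 29.0, 30.4 and 34.1 CPM in KO, with log2 fold change −0.58 ± 0.0722 (adjusted *P*=0.000359). *Mrpl19* (chr6:81957851-81965958, minus strand) read 32.8, 36.9, 44.8 and 39.1 CPM against 21.4, 21.2, 24.7 and 26.8 CPM, with log2 fold change −0.68 (adjusted *P*=0.00132). For both genes the groups stood apart. *Mrpl47* (chr3:32725397-32737605, minus strand) read 28.7, 35.9, 38.7 and 35.1 CPM against 21.99, 21.4, 22.1 and 24.8 CPM, with log2 fold change −0.59 (adjusted *P*=0.00133). *Mrps27* (chr13:99344786-99415562, plus strand), a small subunit protein with RNA-binding repeats, read 36.9, 49.7, 48.0 and 48.4 CPM against 27.9, 29.8, 28.7 and 33.0 CPM, with log2 fold change −0.59 (adjusted *P*=0.00178). In WT its first replicate stood well below the other 3, yet above every KO library.

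With library totals *Mrpl34* stood at −0.33, *Mrpl19* at −0.28, *Mrpl47* at −0.19, *Mrps27* at −0.19 and *Mrpl4* at −0.18, and of these only *Mrpl34* was called. After TMM, *Mrps31* (−0.42), *Mrpl37* (−0.49) and *Mrpl1* (−0.50) completed the ribosomal members with the smallest adjusted *P*. With library totals these genes stood at −0.02, −0.09 and −0.10, and none of them was called. *Mrps36*, the dehydrogenase subunit, was lower after TMM as well. It read 69.1, 68.6, 82.0 and 67.3 CPM in WT versus 46.6, 43.6, 46.7 and 54.6 CPM in KO at P35, with log2 fold change −0.56 ± 0.0939 (adjusted *P*=0.0015, edgeR), and −0.20 with overlapping libraries and an adjusted *P* of 0.229 at P21. *Mrpl42*, the most abundant member, read 206, 241, 218 and 231 CPM in WT versus 158, 133, 170.2 and 196 CPM in KO at P35. Its log2 fold change after TMM was −0.42 (adjusted *P*=0.0156, edgeR), and its KO libraries varied more than its WT libraries. With library totals *Mrps36* stood at −0.16 and *Mrpl42* at −0.02 at P35, and neither was called. *Mrpl22*, a tunnel protein, stood at −0.05 at P21 and −0.03 at P35 after TMM, with an SE of 0.103 at P35 and adjusted *P* of 0.832 (edgeR), and the groups overlapped at both ages. With library totals *Mrpl22* stood at 0.13 at P21, not called, and at 0.37 at P35, called higher (adjusted *P*=0.00968, edgeR).

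**Figure D3:**
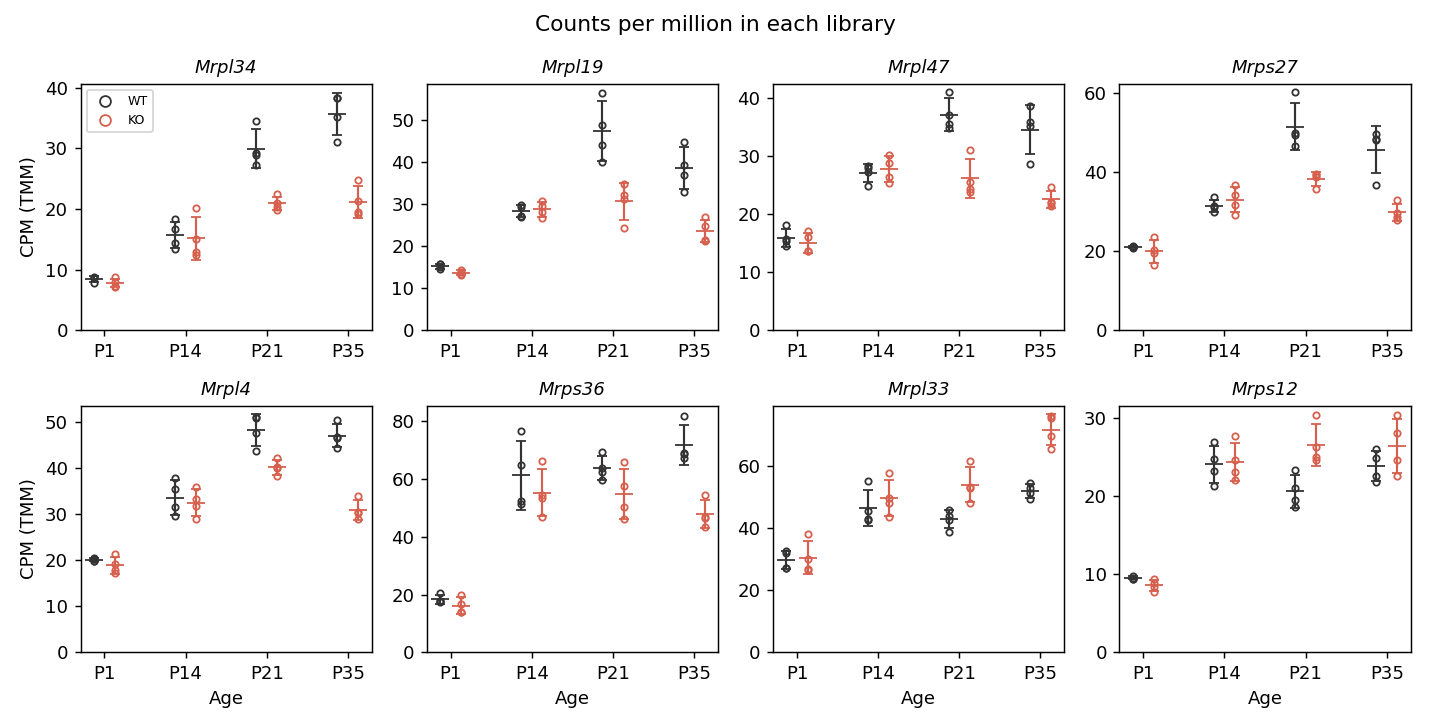
Points are CPM (TMM) of 8 genes in each library by age, WT in black and KO in red, with the mean and SD of the 4 libraries as bars. At P35 the 4 KO libraries of *Mrpl34*, *Mrpl19*, *Mrpl47*, *Mrps27*, *Mrpl4* and *Mrps36* lie below the 4 WT libraries and those of *Mrpl33* above, whereas those of *Mrps12* overlap.

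A few members went the other way. *Mrpl33* (chr5:31596935-31664384, plus strand), the counterpart of bacterial L33, was the only member called higher at both ages after TMM. It read 42.5, 45.7, 38.8 and 43.9 CPM in WT versus 48.1, 61.7, 52.9 and 53.0 CPM in KO at P21, with log2 fold change 0.35 ± 0.0865 (adjusted *P*=0.0204, edgeR). At P35 it read 52.7, 54.5, 51.4 and 49.1 CPM in WT versus 69.5, 65.5, 75.5 and 76.1 CPM in KO, with log2 fold change 0.49 ± 0.0717 (adjusted *P*=0.000783). The KO libraries lay above the WT libraries at both ages. Without WT P21 replicate 1 (0.32) or WT P21 replicate 3 (0.29) the gene was not called at P21. *Mrps12*, a protein of the decoding site, read 18.5, 23.3, 21.0 and 19.5 CPM in WT versus 24.99, 30.4, 24.6 and 26.3 CPM in KO at P21 (0.38, adjusted *P*=0.0274), and stood at 0.17 at P35 (adjusted *P*=0.21) with overlapping libraries. *Mrpl54* stood at 0.31 at P21 (adjusted *P*=0.0345) and 0.08 at P35. *Mrpl52* read 14.4, 12.96, 13.7 and 12.8 CPM in WT versus 14.7, 18.8, 15.7 and 16.5 CPM in KO at P21 (0.30, adjusted *P*=0.0449), and stood at 0.33 at P35 (adjusted *P*=0.0638). Leaving out 1 of the 8 libraries of P21 ended the call of *Mrps12* in 4 refits, that of *Mrpl54* in 5 and that of *Mrpl52* in 7, and the log2 fold changes of these refits ran from 0.23 to 0.38.

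These 4 genes have short principal transcripts, 478 bases for *Mrpl33*, 883 for *Mrps12*, 604 for *Mrpl54* and 418 for *Mrpl52*. Over the 78 members the KO effect at P21 and the log2 transcript length had a Pearson correlation of −0.34 (Spearman −0.32), and at P35 −0.26 (Spearman −0.27). Over all genes the Pearson values were −0.12 and −0.14, and at P14 the members gave −0.02. These are descriptions across genes of the same libraries, and the part of RNA quality in them was not tested. *Mrpl34*, with 607 bases, is as short as *Mrpl54* and had the largest fall at P35.

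Among the large subunit genes 24 of 51 (47.1%) were lower at P35 and among the small subunit genes 7 of 26 (26.9%), with medians of −0.17 and −0.14. At P21 the shares were 31.4% and 30.8%, with medians of −0.14 and −0.11. Of all genes tested 20.1% were lower at P35 and 9.57% at P21, so the small subunit share at P35 was near that of all genes. Genes with a bacterial counterpart and those added in mitochondria had 18 of 46 and 13 of 31 lower at P35, with medians of −0.17 and −0.14. These classes were not compared by a test, and neither was the difference between the subunits at P35.

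Interaction terms in the fit of 32 libraries asked whether the KO effect changed from one age to the next. Between P14 and P21 the effect fell for 2 members and rose for 0 at an adjusted *P* under 0.05, against 0.328% and 1.09% of all genes. At an unadjusted *P* under 0.05 edgeR gave 24 lower and 1 higher, without a share of all genes to set beside these counts. *Mrpl19* had a KO effect of 0.02 at P14 and −0.61 at P21 in the separate fits within each age. In the fit of 32 libraries its effect differed by −0.65 ± 0.145 (adjusted *P*=0.0182, edgeR). At P14 its libraries read 27.1, 29.3, 29.7 and 26.9 CPM in WT versus 26.5, 28.0, 29.6 and 30.6 CPM in KO, which overlap. *Mrpl47* differed by −0.54 ± 0.137 (adjusted *P*=0.0394), with 27.4, 27.9, 24.9 and 28.2 CPM in WT versus 26.4, 30.3, 25.4 and 28.9 CPM in KO at P14. Without WT P21 replicate 1 neither was called, and without WT P21 replicate 4 there were 4 calls. There was 1 call without any of WT P14 replicates 1, 2 and 3, WT P21 replicates 2 and 3, KO P14 replicates 2 and 4, or KO P21 replicates 1, 3 and 4, left out singly. With library totals 1 member was called, and it was higher. Between P1 and P14 there were 0 calls, against 0.0108% of all genes as lower and 0.0161% as higher, with 0 lower and 1 higher at an unadjusted *P* under 0.05, and the smallest adjusted *P* values were those of *Mrpl36* (0.22, adjusted *P*=0.714) and *Mrps16* (0.24). Between P21 and P35 there were 0 calls, against 1.51% and 0.678%, with 3 lower and 1 higher at an unadjusted *P* under 0.05, and *Mrpl4* (−0.34, adjusted *P*=0.0986) and *Mrps6* (0.27) came first. DESeq2 also gave 0 at both of these steps.

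The members that rose in WT from P14 to P21 were mostly those lower in KO at P35. These comparisons share no library. Of the 30 members that rose in that step, 24 (80.0%) were lower in KO at P35, against 8 of the other 48 (16.7%). For all genes the shares were 54.6% and 14.3%. Over the 78 members the log2 fold changes of both comparisons had a Pearson correlation of −0.73 and a Spearman correlation of −0.73, and over 15595 genes −0.33 and −0.38, as a description across genes that share libraries and scaling within each comparison. The 4 members with the largest rises, *Mrpl34*, *Mrpl45*, *Mrps18b* and *Mrpl19*, stood at −0.73, −0.41, −0.36 and −0.68 in KO at P35. *Mrps36* was the clearest departure, with 0.06 in WT over that step and −0.56 in KO. It was picked out after its values were seen.

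**Figure D4:**
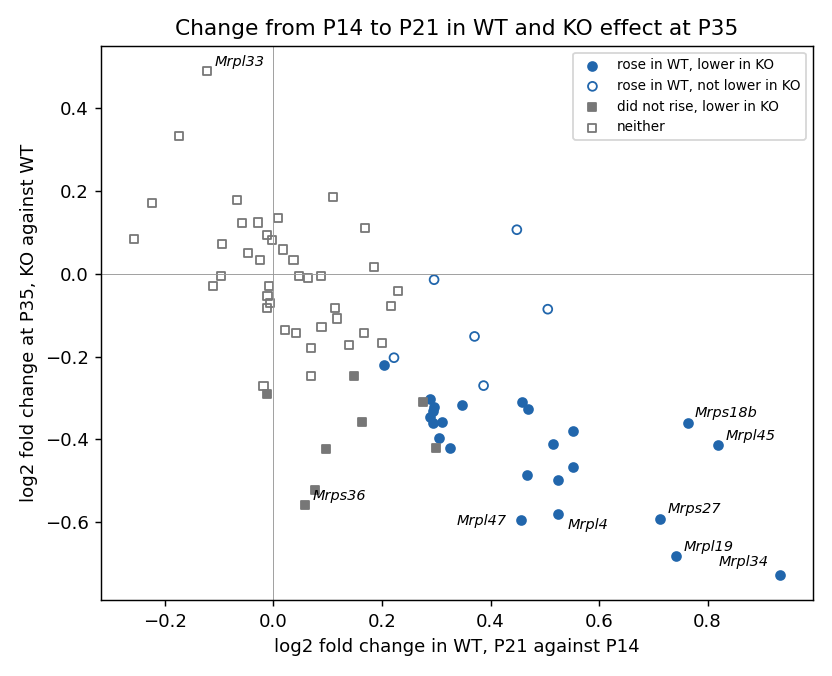
Each point is 1 of the 78 genes, with its log2 fold change in WT from P14 to P21 on the horizontal axis and its log2 fold change at P35, KO against WT, on the vertical axis, both after TMM. Filled symbols are the 32 genes called lower in KO at P35 and blue circles the 30 that rose in WT, and 24 genes are both, among them *Mrpl34* at the lower right.

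The effects at P21 and P35 come from different libraries. Of the 24 members lower at P21, 21 (87.5%) were also lower at P35, which is 65.6% of the 32 lower there. For all genes these shares were 82.0% and 38.1%. The Pearson correlation of both effects was 0.87 over the members and 0.75 over all genes, and 71 of 78 members had the same sign. The 3 members lower at P21 that were not called at P35 were *Mrpl9*, *Mrps9* and *Mrps35*, and no member had an effect that differed between P21 and P35 by the interaction test described above.

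Other genes of mitochondrial translation were taken as lists. Of all genes tested, 9.57% were lower and 11.4% higher at P21, and 20.1% lower and 21.4% higher at P35. The lists were not tested against these shares, and the shortest hold few genes. Of the 5 ribosomal proteins that do not carry the family name, 2 were lower at P21 and 2 at P35, namely *Ptcd3*, a small subunit protein of the pentatricopeptide repeat type (−0.50 and −0.74), with *Gadd45gip1* at P21 (−0.29) and *Dap3* at P35 (−0.39). Of 27 assembly factors and rRNA modifiers, 8 were lower at P21 and 12 at P35, with medians of −0.15 and −0.22. They included *Nsun4*, a methyltransferase for the small subunit rRNA (−0.53 and −0.67), *Mrm3*, a methyltransferase for the large subunit rRNA (−0.66 at P21), and the GTPases *Gtpbp10* (−0.39 at P21) and *Eral1* (−0.43 at P35), as well as *Fastkd2* (−0.59 at P35). Of 16 translation factors, 8 and 10 were lower, with medians of −0.26 and −0.46. *Taco1*, which promotes translation of the mRNA for cytochrome oxidase subunit 1, fell by the most of these, at −0.60 and −1.04 (adjusted *P*=7.39e-05 at P35, edgeR). The translation factors *Gfm1* and *Gfm2* stood at −0.60 and −0.64 at P35, and the initiation factor *Mtif2* and the RNA-binding protein *Lrpprc* at −0.43 and −0.42 at P21. Of 10 genes for mitochondrial transcription and genome maintenance, 2 and 6 were lower, among them the helicase *Twnk* (−0.35 and −0.42), *Tefm* (−0.31 at P21), the RNA polymerase *Polrmt* (−0.61 at P35) and *Tfb2m* (−0.47 at P35). After TMM no gene of these 4 lists was called higher at either age.

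The mRNAs that the mitochondrial ribosome translates had a larger median fall than the members. All 13 were lower at P21 (median −0.53) and 10 of 13 at P35 (median −1.02), among them *mt-Nd4l* (−0.85 and −1.48), *mt-Atp8* (−0.58 and −1.28), *mt-Nd2* (−0.67 at P21) and *mt-Nd5* (−1.57 at P35). Both mitochondrial rRNAs were lower at P35, *mt-Rnr1* by −1.10 and *mt-Rnr2* by −1.21, and neither at P21, in libraries made from poly(A) RNA. Of 36 nuclear complex I genes 19 and 24 were lower, with medians of −0.23 and −0.41, and of 10 general mitochondrial genes 7 and 8 were lower and 0 and 1 higher, with *Cs*, citrate synthase, at −0.44 and −0.81, *Immt* at −0.37 and −0.67, *Hspa9* at −0.39 at P21 and *Vdac1* at −0.75 at P35. Ribosomal proteins of the cytosol went the opposite way, with 56 of 75 higher at P21 and 74 of 75 at P35, at medians of 0.25 and 0.45, and 0 lower. At P1 and P14 no gene of any of these lists was called.

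With library totals several of these lists changed sign, as the members did. The median of the assembly factors was then 0.04 at P21 and 0.18 at P35, that of the proteins under other names 0.02 and 0.17 and that of the transcription genes 0.07 and 0.07. Of the assembly factors 3 were then lower and 4 higher at P21, and 1 lower and 11 higher at P35. Of the proteins under other names 1 was lower and 1 higher at P21, and 1 lower and 2 higher at P35, and the transcription genes gave the same counts at both ages. The medians of the translation factors (−0.07 and −0.06) and the complex I genes (−0.05 and −0.02) stayed just below 0. So did that of the general mitochondrial genes (−0.09 and −0.06). Among the translation factors 5 were lower and 0 higher at P21, and 4 lower and 3 higher at P35. Among the complex I genes 4 were lower and 3 higher at P21, and 3 lower and 7 higher at P35. The general mitochondrial genes had 3 lower and 2 higher at both ages. The mitochondrially encoded mRNAs were lower under both scalings, at −0.34 and −0.62 with library totals, and the cytosolic ribosomal proteins higher, at 0.44 and 0.85. All 16 translation factors lay below the median gene at both ages under both scalings, and of the 75 cytosolic ribosomal proteins 0 did.

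**Figure D5:**
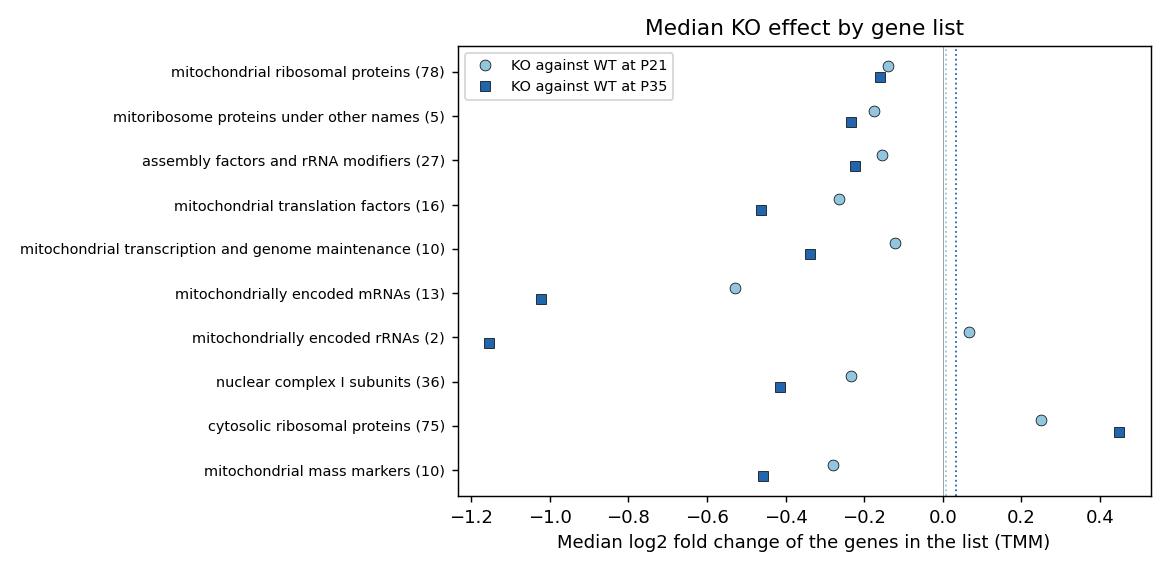
Points are the median log2 fold change, KO against WT after TMM, of the genes in each list at P21 (circles) and P35 (squares), with the number of genes tested in parentheses and dotted lines for the median of all genes. The 78 mitochondrial ribosomal protein genes lie at −0.14 and −0.16 (0.05 and 0.24 with library totals), the mitochondrially encoded mRNAs at −0.53 and −1.02 and the cytosolic ribosomal proteins at 0.25 and 0.45.

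Markers of other cell types moved with genotype at the ages at which the members did. The 8 fiber markers summed to 153290 to 199110 CPM in WT versus 133190 to 146820 CPM in KO at P21, and to 117960 to 163460 and 81171 to 103930 CPM at P35, with 2 and 4 of 8 called lower and 0 and 1 higher. The 4 macrophage markers summed to 26.6 to 30.7 CPM in WT versus 38.8 to 50.4 CPM in KO at P21, and to 26.4 to 32.7 and 38.2 to 56.5 CPM at P35, with all 4 called higher at both ages. The 4 endothelial markers summed to 514 to 782 CPM in WT versus 399 to 485 CPM in KO at P21, with 3 lower, and at P35 the sums overlapped while 3 of the 4 markers were again called lower. The 2 satellite cell markers were below WT in all KO libraries at both ages, and the 3 adipocyte markers above at P35, at 11.7 to 45.8 CPM against 1.87 to 7.93 CPM. The sums of fibroblast, Schwann cell and proliferation markers overlapped between the genotypes at both ages, with 1 fibroblast marker called higher at both ages and 1 Schwann cell marker at P35. No marker of these lists was at 0 in all libraries of an age. The part of these cells in the members' levels was not tested.

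Of the 78 members 33 have exons that overlap exons of another gene in the GENCODE annotation. *Mrpl46* and *Mrps11* lie on opposite strands and overlap each other by 173 bases, and *Mrpl19* overlaps *Gcfc2* by 1962 bases. *Mrpl47* overlaps *Ndufb5*, a complex I gene with a mean of 11409 counts per library against 1491 for *Mrpl47*, by 616 bases on the opposite strand. The libraries were stranded, and the sources used here do not say if reads were counted by strand, so the counts of these pairs are uncertain to the extent that reads were shared. *Mrpl34* and *Mrpl4* overlap no other gene.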

How the data were processed

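Libraries were prepared from poly(A) RNA of skeletal muscle with a directional kit, and the table holds 4 libraries per genotype and age. The deposited values are expected counts per gene, which the authors made by alignment to GRCm38 with STAR 2.6.1 and estimation with RSEM 1.2.22, per the labels. The methods name HTSeq for counting, the table's values are not all whole (17 members had such values), and the strand setting is not given in the sources used here. For the tests these values were rounded, genes of low count were removed by edgeR's filter within each fit, and libraries were scaled by TMM (edgeR 4.0.16, R 4.3.3). KO was compared with WT within each age over 8 libraries by the quasi-likelihood test, and age steps and interactions came from 1 fit of all 32 libraries over 18583 genes. *P* values were adjusted by Benjamini-Hochberg over all genes of a fit. Replicate numbers paired KO and WT libraries at P14, where the deviations of same-numbered libraries correlated at 0.51 to 0.85, and did not at the other ages. The labels do not say whether replicates are separate animals, so *P* values measure the spread between these libraries. No pair of libraries agreed within sampling noise.

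Transcript lengths and gene positions were those of GENCODE M21, and 54809 of 54838 identifiers matched. Levels per kb used the principal transcript. Promoters came from RefSeq. Named members were the extremes of level per kb, those with the smallest adjusted *P* or largest change in each comparison, the S18 genes, *Mrps36* and *Mrpl22*. The members, lists and naming rules were chosen with earlier results of these data known. Alternatives were other scalings (DESeq2 1.42.0, upper quartile, library totals), no filter, the study's thresholds, DESeq2's Wald test, the replicate number as a block and leaving out each library. The code was tested on simulated data.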

Additional observations from a re-analysis of the deposited data

Results flagged for a closer look

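Groups of 4 libraries were examined for 15 of the members and for the summed level. In 7 of 128 groups 1 library stood apart from the other 3, and chance alone flags about 1 group in 20. *Mrps27* read 35.7 CPM in KO P21 replicate 3, where the others read 38.8 to 39.4, and 36.9 CPM in WT P35 replicate 1, where the others read 48.0 to 49.7. *Mrpl45* read 49.98 CPM in WT P14 replicate 4, where the others read 41.7 to 42.9, and 58.4 CPM in KO P35 replicate 4, where the others read 49.8 to 50.7. *Mrpl54* read 24.3 CPM in WT P21 replicate 2, against 20.6 to 21.2. *Mrps36* read 82.0 CPM in WT P35 replicate 3, against 67.3 to 69.1. *Mrpl22* read 21.0 CPM in WT P35 replicate 2, against 18.5 to 18.8.

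The KO effect differed between P14 and P21 for *Mrpl19*, by −0.65 on the log2 scale (adjusted *P*=0.0182, edgeR's interaction test), and for *Mrpl47*, by −0.54 (adjusted *P*=0.0394). The call of *Mrpl47* was lost in 11 of 16 refits without 1 library, at −0.56 to −0.49, and that of *Mrpl19* in 1 of 16, at −0.55 without WT P21 replicate 1.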

How the results depend on the processing

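Of 87 recomputed counts of called members, 71 stayed within 1.5 times of the value reported and kept the direction of most calls. Many of the 71 are counts of 0 that stayed at 0, which a stricter threshold could not change. The 71 also hold 2 steps in WT with library totals. From P1 to P14, 76 higher and 0 lower became 31 and 21, and from P14 to P21, 30 and 1 became 16 and 8. With library totals the calls of KO against WT were 22 at P21 (6 lower) and 38 at P35 (1 lower), and without mitochondrially encoded genes in the totals 14 (7 lower) and 31 (3 lower). The same scaling gave 11 calls from P21 to P35 in WT (8 lower) and 1 call, higher, for the KO effect between P14 and P21. The study's thresholds left 0 members at P21, 4 at P35, 5 from P14 to P21 in WT and 0 from P21 to P35. The count of 2 for the KO effect between P14 and P21 became 7 with DESeq2, 5 with the 16 libraries of these ages, 4 with the replicate block and 0 at an adjusted *P* under 0.01. The replicate block gave 1 call at P14 and 1 for the KO effect between P21 and P35, and otherwise left counts within 1.5 times. Same-numbered libraries correlated at −0.47 to −0.03 at P1, −0.08 to 0.33 at P21 and −0.12 to 0.29 at P35, so there they share a number only. Without 1 library, counts ranged from 14 to 26 at P21, 24 to 36 at P35, 75 to 76 from P1 to P14, 22 to 34 from P14 to P21, 6 to 16 from P21 to P35 and 0 to 4 for the KO effect between P14 and P21, and were 0 at P1 and P14. Of 835 refits of named members, 766 kept their direction and side of the threshold, 67 lost and 2 gained the call, and 0 called values changed sign. The cause of these changes was not tested. With 4 libraries per group, differences smaller than the spread between libraries were not detectable.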
